A study of Ovis aries with 2 samples.

Results

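The cells described here are suprabasal keratinocytes of lamb skin in which a group of genes led by KRT79 and CST6 outweighed a group led by FLG and CNFN, and they made up 1483 of the 14037 cells of the series. They were chosen with levels in CP10K, the UMIs of a gene per 10000 UMIs of the cell (a unique molecular identifier, or UMI, stands for 1 captured RNA molecule). A cell was kept when KRT1 plus KRTDAP reached 50 CP10K, KRT6A was under 20 CP10K, and the sum of KRT79, CST6, ASPRV1, LIPK, CRCT1 and ATP6V1C2 was larger than the sum of FLG, CNFN, LYPD2, SPINK7, SPINK9 and SERPINA12. The straight wool library held 502 chosen cells among 6452 (7.78%, exact Clopper-Pearson 95% interval 7.14 to 8.46). The curly wool library held 981 among 7585 (12.9%, interval 12.2 to 13.7). All intervals given here cover counting error only.

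Skin came from the body side of Hu sheep lambs aged 3 days, with straight wool or with waved wool, which the study calls curly. Skins of 3 lambs of each wool type were pooled, cells freed from follicles and cells freed from intact skin were combined, and each pool gave 1 droplet single-cell RNA library. With 1 library per wool type there was no spread between lambs, so no test between wool types was made, and a difference between the libraries cannot be told apart from one between pools, dissociations or mixtures. Shares of cells depend on the mixing as well.

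The epidermis renews from a basal layer that holds KRT5 and KRT14. Cells that leave it switch to KRT1 and KRT10, stop dividing, and build a cornified envelope, a lipid barrier and desmosomes that proteases later cut. The wall of the hair canal, or infundibulum, makes a barrier of the same kind, and in mouse skin KRT79 marks cells of the infundibulum and the sebaceous duct, where the transcription factor GATA6 is also found. CST6 encodes cystatin M/E, an inhibitor of cysteine proteases such as legumain and cathepsin V. ASPRV1 is a protease that cleaves profilaggrin, LIPK a lipase of the upper epidermis, CRCT1 a small protein of the late envelope gene cluster and ATP6V1C2 a subunit of the vacuolar proton pump. On the opposing side of the rule, FLG encodes filaggrin, CNFN cornifelin of the envelope, SPINK7 and SPINK9 serine protease inhibitors, and SERPINA12 another inhibitor of kallikreins.

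The chosen cells held a median of 11606 UMIs in the straight and 9690 in the curly library, against 7373.5 and 7495 over all cells. Pairs of values are given with the straight library first. For a group of cells, UMIs were summed and given per 1000000 UMIs (CPM, of which 100 make 1 CP10K). The libraries shared 70 cell barcodes, 15 of which belonged to a chosen cell, and none joined a pair of chosen cells (0 barcodes). RNA from broken cells can enter any droplet, so 183 straight and 146 curly endothelial cells, with a UMI of at least 3 of 9 endothelial markers, served as a background, with median depths of 5978 and 4635 UMIs. CST6 is no endothelial gene, yet 90.2% and 100% of these cells had a CST6 UMI, and their summed level was 486 and 1325 CPM. The curly library also stood apart in interferon genes in every kind of cell compared, which is taken up with the wool types.

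The label held for a part of the chosen cells. CST6 made up a median of 93.5% of the rule's sum in straight and 95% in curly, so the choice rested mostly on this gene. In 272 straight cells (54.2%) and 486 curly cells (49.5%), CST6 was no higher than the 95th percentile of the endothelial cells, 25.5 CP10K in straight and 63.7 CP10K in curly. KRT79 had no UMI in 267 straight and 479 curly cells. A UMI of KRT79 was found in 46.8% (42.4 to 51.3) of the chosen straight cells and 51.2% (48.0 to 54.3) of the curly ones. The share was 7.65% and 12.3% in endothelial cells and 15.5% and 15.6% in basal keratinocytes. It was 8.66% and 8.06% in cells of the FLG and CNFN type. Cells of this type passed the same conditions but had the larger sum of FLG, CNFN, LYPD2, SPINK7, SPINK9 and SERPINA12. Only 1 of the 6 rule genes had a UMI in 180 straight and 261 curly chosen cells, and all 6 did in 20 and 54.

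KRT79 and the other rule genes chose the cells, so shares above those of other cells follow in part from the rule. LIPK was the rule gene with the lowest background. It had a UMI in 21.9% (18.4 to 25.8) of straight and 23.2% (20.6 to 26.0) of curly chosen cells, against 0% and 1.37% of endothelial cells (the straight 0 allows a share of up to 1.64%). ASPRV1 was seen in 52.8% and 56.3% of chosen cells, with 12.6% and 21.2% in endothelial cells, CRCT1 in 15.5% and 16.5%, with 1.64% and 4.79%, and ATP6V1C2 in 10.4% and 16.2%, with 1.09% and 1.37%. At the limits of the rule, the lowest KRT1 plus KRTDAP inside was 50.2 CP10K in straight and 50.1 in curly, and the highest outside was 49.7 and 49.8. The highest KRT6A inside was 19.6 CP10K in both libraries. The smallest difference between the sums was 0.531 and 0.961 CP10K inside and 0.499 and 0.455 outside, and 28 straight and 10 curly cells with equal sums were left out. KRT79 was not restricted to the chosen cells: of the cells with at least 5 CP10K of KRT79, 322 in straight and 520 in curly, 51.6% and 62.7% were chosen, and 143 and 184 were left out by the KRT1 plus KRTDAP minimum.

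Because of this mixture the chosen cells are described in 3 ranges, whose limits were set after the values were seen. KRT79-high cells had at least 5 CP10K of KRT79, CST6-high cells had less KRT79 but more CST6 than the endothelial 95th percentile of their library, and CST6-low cells had neither. The ranges are cuts made for description and are not called types, and 17 straight and 22 curly cells lay between 4 and 6 CP10K of KRT79. Whether the chosen cells form a continuum was not tested. They held 166, 102 and 234 straight cells and 326, 212 and 443 curly cells, so that KRT79-high cells were 33.1% and 33.2% of the chosen cells. Median depths were 13998.5 and 13827.5 UMIs in KRT79-high cells, 7351 and 6475 in CST6-high cells, and 11433.5 and 8292 in CST6-low cells. In a cell under 2000 UMIs, 1 KRT79 UMI is enough to pass 5 CP10K. Such cells numbered 24 and 50 among KRT79-high, 37 and 81 among CST6-high and 28 and 66 among CST6-low cells.

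**Figure D1:**
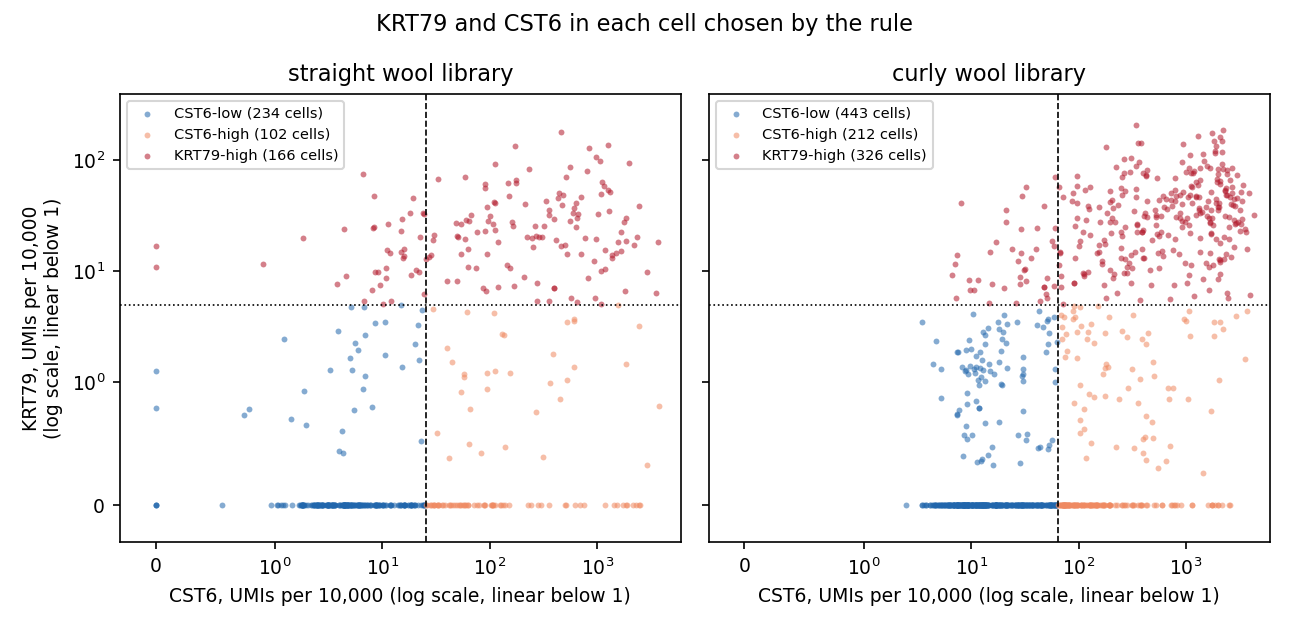
Each point is 1 chosen cell of the straight (left) or curly (right) library, with its CST6 level on the horizontal and its KRT79 level on the vertical axis, both in UMIs per 10000 on a log scale that is linear under 1. The dotted line lies at 5 UMIs per 10000 of KRT79 and the dashed line at the endothelial 95th percentile of CST6 (25.5 in straight, 63.7 in curly), and the densest group of points in both panels lies at 0 KRT79 to the left of the dashed line.

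CST6-low cells carried KRT1 and KRT10 but little KRT79, CST6 or LIPK. KRT79, the keratin of the hair canal and sebaceous duct, stood at 3214 and 4441 CPM in KRT79-high cells, at 110.0 and 109 CPM in CST6-high cells, and at 33.9 and 32.8 CPM in CST6-low cells, where basal keratinocytes had 45.4 and 34.4 CPM. CST6 stood at 56654 and 137180.0 CPM in KRT79-high cells, at 54852 and 60120.0 CPM in CST6-high cells and at 522 and 1784 CPM in CST6-low cells, close to the endothelial 486 and 1325 CPM. These levels follow from how the ranges were cut. LIPK, which helped to choose the cells but set no limit of a range, stood at 105 and 159.8 CPM, then 112 and 98.8 CPM, then 3.12 and 3.07 CPM in the same order. KRT10, a keratin of all suprabasal layers, went the other way, at 15637 and 11896 CPM in KRT79-high, 19836 and 24791 CPM in CST6-high and 27415 and 34514 CPM in CST6-low cells.

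Genes named for their rank between ranges were chosen after the values were seen. To compare ranges, a gene counted as higher or lower when the log2 ratio of CPM passed 1 (at least 2-fold) in each library. The ratio nearer to 0 is given, or 0 where the libraries differed in sign. Among 6981 genes with at least 100 UMIs, 362 (5.19%) were higher and 291 (4.17%) lower in KRT79-high than in CST6-low cells. The cells were sorted by their own RNA, so these are descriptions with no test. The ranges differ in depth and in how many UMIs CST6 takes up, whose part in the ratios was not tested.

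Of 16 measured genes known from the upper follicle, 8 were higher and 1 lower in KRT79-high than in CST6-low cells. The median log2 ratio was 1.12 (0 over all genes). The rule itself used 3 of the 8 (KRT79, CST6 and ATP6V1C2). KRT79 and CST6 also set the limits of the ranges, so their place in this count follows from the cuts. GATA6 stood at 33.8 and 43.4 CPM in KRT79-high cells, 36.0 and 18.4 CPM in CST6-high cells, and 2.34 and 2.83 CPM in CST6-low cells. A GATA6 UMI was found in 31.3% (24.4 to 39.0) and 35.0% (29.8 to 40.4) of KRT79-high cells, in 22.5% and 13.2% of CST6-high cells and in 2.56% and 2.71% of CST6-low cells, where endothelial cells had 1.64% and 1.37%. The CST6-low shares lay near the endothelial ones. KRT79-high cells also had the larger median depth of the 2 ranges in both libraries, and the part of depth in these shares was not tested. SOX9, a transcription factor of the outer root sheath, stood at 393 and 364 CPM, 471 and 227 CPM, then 94.8 and 77.7 CPM along the 3 ranges. PRDM1, a regulator of terminal differentiation that is also known from the sebaceous gland, stood at 116 and 119 CPM in KRT79-high and 30.0 and 9.21 CPM in CST6-low cells. GATA3, named for inner root sheath and epidermal differentiation, was the member lower in KRT79-high cells, with 33.4 and 28.0 CPM against 211 and 256 CPM.

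Enzymes that cut desmosomes, and their substrate, marked the same split. Of 23 measured proteases, 12 were higher and 2 lower in KRT79-high than in CST6-low cells (median log2 1.09). KLK7, a kallikrein that cleaves corneodesmosin, stood at 1649 and 2060.4 CPM in KRT79-high and 24.6 and 52.6 CPM in CST6-low cells. CDSN, corneodesmosin itself, stood at 581 and 1487 CPM against 3.51 and 88.5 CPM. By ratio, KLK7 ranked 6 and CDSN 18 among all genes compared between these ranges. They show the upper end of the split and not its usual size. KLK10, another kallikrein, had 969 and 1056 CPM against 128 and 66.3 CPM. CASP1, the caspase that processes interleukin-1 beta, was among the proteases lower in KRT79-high cells, with 0.879 and 0.4 CPM against 42.5 and 19.8 CPM.

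Of 20 envelope genes 8 were higher and 0 lower in KRT79-high than in CST6-low cells (median log2 0.72), with SPRR4, a small proline-rich envelope protein, at 61.1 and 634 CPM against 2.73 and 6.14 CPM. Of 29 barrier lipid genes 8 were higher, LIPK of the rule among them, and 2 lower (median 0.09). PLA2G2F, a secreted phospholipase of the upper epidermis, had 27.2 and 162 CPM against 1.17 and 3.30 CPM. ABCA12, the lipid carrier of lamellar granules, had 25.9 and 26.6 CPM against 6.24 and 9.68 CPM. Of 16 genes of tight and gap junctions 6 were higher and 0 lower, with CLDN4, a claudin of barrier-forming layers, at 1617 and 2081 CPM against 305 and 239.8 CPM. SLC15A1, a transporter of small peptides, had 26.8 and 62.8 CPM against 0.39 and 1.18 CPM, and PDZK1, a scaffold for membrane transporters, 88.3 and 165 CPM against 2.73 and 5.19 CPM.

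Signals to neighbouring cells were also unevenly spread. IL1A, the alpha form of interleukin-1 that keratinocytes store, stood at 120.4 and 312 CPM in KRT79-high, 85.0 and 138 CPM in CST6-high and 1.95 and 7.08 CPM in CST6-low cells. Of 10 genes of the EGFR family and its ligands, 5 were higher and 0 lower in KRT79-high than in CST6-low cells (median log2 1.05), with the ligand AREG at 845 and 816 CPM against 191 and 134 CPM. WNT3, a Wnt ligand, was lower, at 2.2 and 1.20 CPM against 51.9 and 47.7 CPM, and IL20RA, a receptor chain for interleukin-20, stood at 3.52 and 2.60 CPM against 71.4 and 75.1 CPM. Of 27 immediate early and stress genes, which dissociation can raise, 5 were higher and 0 lower (median log2 0.52), led by DUSP2 at 49.7 and 48.0 CPM against 7.41 and 7.79 CPM, and the part of dissociation in the ranges was not tested.

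CST6-low cells also held more RNA of several basal layer genes. KRT14 (LOC101118459 in the deposited table) stood at 14000.0 and 7769.9 CPM in CST6-low cells, 1668 and 1099.9 CPM in KRT79-high cells, and 12678 and 14333 CPM in basal keratinocytes. COL17A1, a collagen of the anchors to the basement membrane, stood at 331 and 190.5 CPM in CST6-low and 27.2 and 15.0 CPM in KRT79-high cells. Of 10 basal adhesion genes 6 were lower and 0 higher in KRT79-high cells (median log2 -1.22), and of 13 cycling genes 5 were lower and 0 higher (median -0.49). LY6D, a surface protein of early suprabasal keratinocytes, stood at 1787 and 2206 CPM in CST6-low and 316 and 301 CPM in KRT79-high cells.

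CST6-high cells parted from CST6-low cells in a like number of genes, with 320 of 6122 (5.23%) higher and 176 (2.87%) lower. KLK7 and CDSN were again among them, at 1204 and 3018 CPM and at 738 and 1903 CPM in CST6-high cells. Between the ranges with much CST6, few genes differed. In shallow cells the cut between these ranges turned on a lone KRT79 UMI, and the part of this in their likeness was not tested. Of 5824 genes, 12 (0.206%) were higher and 43 (0.738%) lower in KRT79-high than in CST6-high cells. KRT79, which set the limit, had a log2 ratio of 4.87, followed by HMOX1, a haem-degrading enzyme, at 2.01. The lower genes were led by ALOX12B, a lipoxygenase of the lipid envelope, at -4.54, by the amino acid transporter SLC6A14 at -4.36, and by LYPD2 at -3.66, SPINK9 at -3.59 and SERPINA12 at -3.26, which stand on the opposing side of the rule and so were used in choosing the cells. LYPD2 had 3.96 and 1.20 CPM in KRT79-high and 49.98 and 204 CPM in CST6-high cells.

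**Figure D2:**
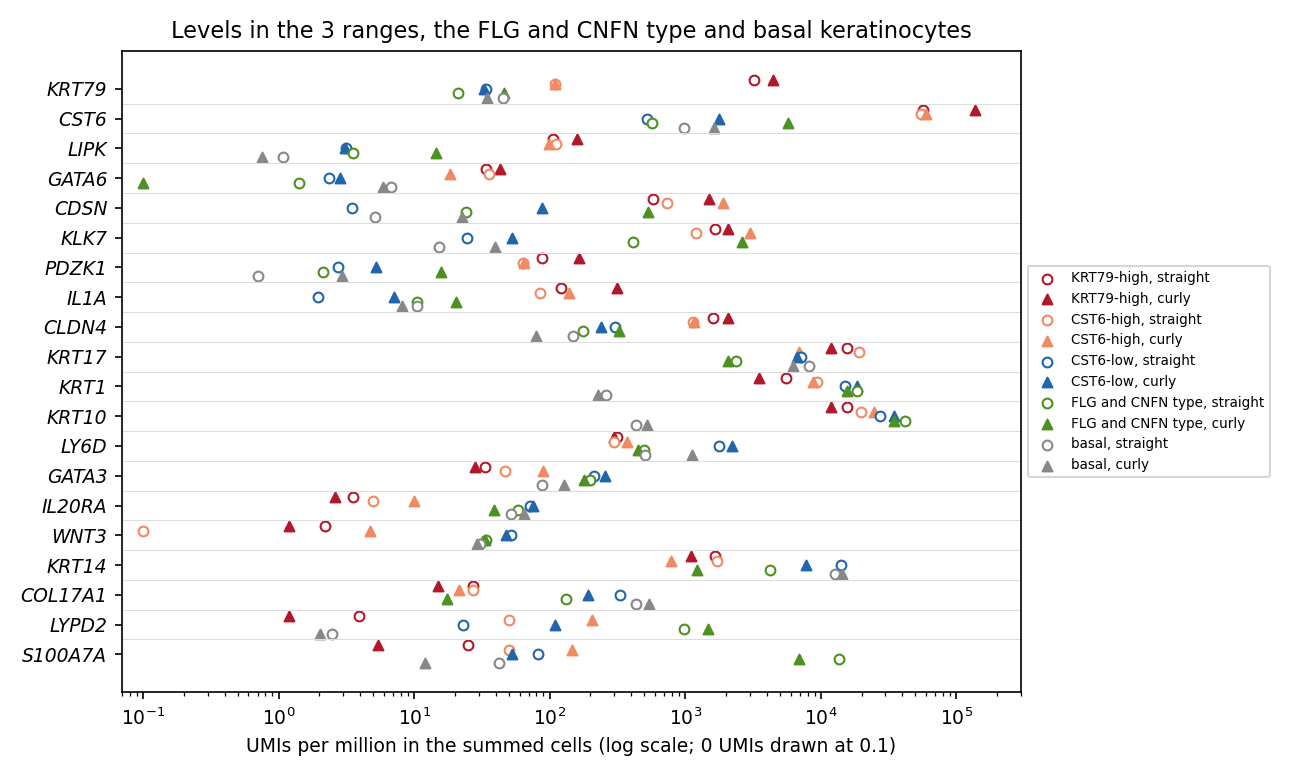
Level of 20 genes (rows) in CPM on a log scale, for the 3 ranges of the chosen cells, the FLG and CNFN type and basal keratinocytes, with open circles for the straight and filled triangles for the curly library (0 UMIs drawn at 0.1). GATA6, KLK7, CDSN, PDZK1 and IL1A were high in both ranges with much CST6 (red and orange) and low in CST6-low cells (blue), which lay beside basal keratinocytes (grey) for KRT14.

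The FLG and CNFN type, the most similar cells, numbered 127 in straight and 62 in curly, with median depths of 10709 and 9102.5 UMIs. The name stands for the opposing side of the rule, and most of these cells had no FLG UMI. FLG had a UMI in 29.9% and 27.4% of them, against 3.98% and 10.3% of chosen cells. CNFN had one in 16.5% and 50%, against 15.7% and 27.9% of chosen cells. More of them had a UMI of SPINK7 (79.5% and 82.3%) or SPINK9 (77.2% and 75.8%). Chosen cells had more RNA of several junction and upper follicle genes, whereas the FLG and CNFN type had more of the water channel AQP5, of S100A7A and of several lipid enzymes. Of 7993 genes, 219 (2.74%) were higher and 177 (2.21%) lower in the chosen cells in both libraries. With the ratios of each library centred on their own median (log2 -0.118 and -0.199), the counts were 283 and 133. The share of higher genes was then 68% in place of 55.3%. List medians, and the medians over all genes beside them, take for each gene the ratio nearer to 0. Genes whose ratios differed in sign between the libraries count as 0, which draws these medians towards 0. The opposing sums of the rule separate these cells, and all ratios are descriptions.

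Of the rule's own genes, KRT79 (log2 ratios of 5.93 in straight and 5.42 in curly), CST6 (5.81 and 3.64) and LIPK (4.13 and 2.64) were higher in the chosen cells of both libraries. ASPRV1 was higher in straight only, at 3.15 against -0.54 in curly, as were CRCT1 (4.97 and 0.07) and ATP6V1C2 (6.45 and 0.48). In the 62 curly cells of the FLG and CNFN type, 1 cell held 54.1% of the ASPRV1, 79.6% of the CRCT1 and 49.5% of the ATP6V1C2 UMIs.

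Of 16 upper follicle genes 5 were higher, namely KRT79 and CST6 of the rule and GATA6, KRT17 and SOX9, and 0 were lower (median log2 0.28, 0 over all genes). GATA6 had 20.4 and 23.6 CPM in chosen cells and 1.41 and 0 CPM in the FLG and CNFN type, where 2 of 127 straight cells had a GATA6 UMI. NFATC1, a transcription factor of resting follicle stem cells, had 17.98 and 19.4 CPM against 1.41 and 0 CPM. KRT17, a keratin of the outer root sheath that is not usual in resting epidermis between follicles, had 12463 and 8984 CPM against 2366 and 2056 CPM, and 8169 and 6289 CPM in basal keratinocytes. SOX9 had 275 and 232 CPM against 67.7 and 82.5 CPM. Of the 47 transcription factors measured, GATA6, NFATC1 and SOX9 were the 3 that were higher, and ELF5 and POU2F3 the 2 that were lower. ELF5, an ETS factor known from glandular epithelia, had 17.1 and 21.4 CPM against 197 and 165 CPM, and POU2F3, a factor of suprabasal epidermis, 37.0 and 29.2 CPM against 106 and 110.0 CPM.

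Of 19 junction genes 4 were higher and 0 lower (median log2 0.34). CLDN4 had 959 and 1223 CPM against 178 and 326 CPM, and CLDN3, a further claudin, 22.3 and 21.1 CPM against 8.46 and 4.34 CPM. HAS1, a hyaluronan synthase, was among the highest ratios, at 52.0 and 43.1 CPM against 2.82 and 1.45 CPM. So was ILDR1, a protein of junctions where 3 cells meet, with 17.3 and 13.5 CPM against 0.705 and 0 CPM. CD55, which protects cells from complement, had 21.2 and 14.4 CPM against 1.41 and 1.45 CPM. Among cytokine genes, IL1A had 62.3 and 166 CPM against 10.6 and 20.3 CPM, and 2 of 17 antimicrobial and cytokine genes were higher and 4 lower. Immediate early and stress genes, which dissociation can raise, were higher in 5 of 27 and lower in 0 (median 0.44), and their part in the ratios was not tested.

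Of 32 barrier lipid genes 4 were higher and 7 lower (median log2 -0.02). PLA2G2F (15.6 and 108 CPM against 0.705 and 7.23 CPM), ABCA1, a cholesterol exporter (17.5 and 19.1 CPM against 1.41 and 1.45 CPM), ABHD5, which activates triglyceride lipase, and LIPK were the higher ones. LIPK belongs to the rule, so its place follows in part from the choice. The lower ones included ALOX12B (2.74 and 20.7 CPM against 14.1 and 107 CPM), ALOXE3, CERS3 and ELOVL4, all steps in making the ceramides of the lipid envelope. CERS3, a ceramide synthase, had 6.16 and 14.5 CPM against 20.4 and 56.4 CPM, and ELOVL4, which lengthens fatty acids, 14.04 and 37.9 CPM against 52.1 and 175 CPM. Of 21 envelope genes 0 were higher and 5 lower (median -0.24). Genes of either side of the rule were not taken out of these lists, and the place of any such gene follows in part from the choice. LOR, loricrin, went in opposite directions, with ratios of 2.90 in straight and -2.2 in curly, and a single cell held 56.7% of the LOR UMIs of the chosen straight cells. KLK8 was lower, at 37.8 and 48.2 CPM against 194 and 256 CPM, whereas KLK6 was the protease that was higher, at 154 and 169.9 CPM against 27.5 and 65.1 CPM.

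The lowest ratios of all genes were those of AQP5 and S100A7A. AQP5, a water channel of secretory epithelia, had 3 and 1 UMIs in all chosen cells, and 161 and 85.4 CPM in the FLG and CNFN type. S100A7A (LOC114113225), of the psoriasin family, had 54.1 and 49.1 CPM against 13736 and 6889 CPM. HSD11B2, which inactivates cortisol, had 1.54 and 1.15 CPM against 76.8 and 79.6 CPM, and SERPINE2, a protease inhibitor, 10.1 and 12.9 CPM against 466 and 449 CPM. KRT4, a keratin of mucosal and ductal linings, had 16.8 and 13.7 CPM against 793 and 373 CPM, and 1 cell held 73.5% and 85.2% of the KRT4 UMIs of the chosen cells. AQP3, the glycerol channel of epidermis, differed less, with 2394 and 968 CPM against 11120.0 and 5918 CPM.

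**Figure D3:**
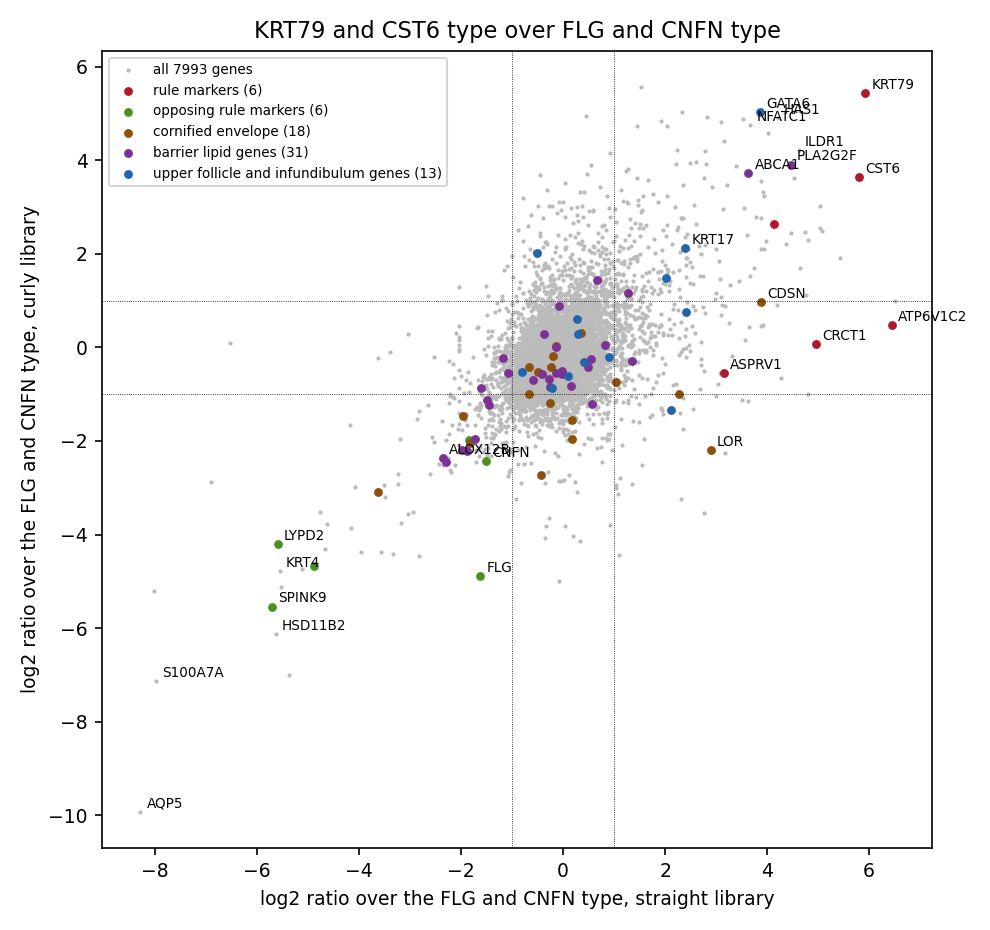
Log2 ratio of the chosen cells over the FLG and CNFN type in the straight (horizontal) and curly (vertical) library for 7993 genes (grey) and 5 gene lists (coloured), with dotted lines at 2-fold. KRT79, CST6, GATA6 and KRT17 lie high in both libraries, AQP5 and S100A7A low in both, while CRCT1, ATP6V1C2, ASPRV1 and LOR are high in straight only.

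Basal keratinocytes numbered 1887 in straight and 1736 in curly (KRT1 plus KRTDAP under 50, KRT5 plus KRT14 at least 50 and basal adhesion genes together at least 5 CP10K). No condition kept follicle cells out of them. At least 2 of 9 follicle stem and outer root sheath markers had UMIs in 91.6% and 90.6% of them, against 24.0% and 15.8% of endothelial cells. The part of follicle cells in the ratios was not tested. Compared with these basal keratinocytes, the chosen cells had more RNA of suprabasal keratins and barrier genes and less of adhesion and cycling genes. Of 10812 genes, 528 (4.88%) were higher and 1524 (14.1%) lower in both libraries. With each library centred on its own median (log2 -0.253 and -0.382), the counts were 768 and 1085. The share of higher genes was then 41.4% in place of 25.7%. Basal keratinocytes were picked by KRT5, KRT14 and the adhesion genes POSTN, COL17A1, ITGA6 and ITGB4, and by little KRT1 and KRTDAP, so lower levels of the former and higher levels of the latter in the chosen cells follow from the choice: all 13 basal adhesion genes measured were lower (median log2 -2.41, -0.17 over all genes). All 25 cycling genes were lower as well (median -2.07), from -1.35 for MKI67 to -3.33 for TYMS. ITGB4, an integrin of hemidesmosomes, had 10.1 and 10.3 CPM against 159.7 and 144 CPM. KRT15 (LOC101117682), a keratin of basal and bulge cells, had 288 and 185 CPM against 4982 and 5309 CPM, whereas KRT17 did not pass 2-fold. Of 11 suprabasal keratins 10 were higher, KRT77 among them at 511 and 672 CPM against 6.44 and 8.99 CPM.

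SPINK5, the kallikrein inhibitor LEKTI, had the largest ratio of all genes, at 854 and 1468 CPM against 7.52 and 16.6 CPM. Envelope genes were higher in 18 of 21 (median 2.63) and barrier lipid genes in 18 of 33 (median 1.22), with 1 lower in each list. CLDN23 stood out among junction genes, at 108 and 107 CPM against 2.49 and 2.35 CPM, and 8 of 19 were higher and 2 lower. Of 52 transcription factors 13 were higher and 4 lower. GRHL3, a regulator of barrier formation, had 20.2 and 21.8 CPM against 1.08 and 2.02 CPM, and ZNF750, a switch of terminal differentiation, 88.0 and 81.4 CPM against 8.22 and 10.8 CPM. In the Notch pathway, which drives the change from basal to suprabasal, the receptor NOTCH3 had 52.2 and 45.2 CPM against 7.39 and 10.8 CPM, and 3 of 17 members were higher and 5 lower. CXCL14, a chemokine, was among the lower genes, with 120.4 and 59.5 CPM against 3652 and 2176 CPM.

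The chosen cells were then divided in each library into 3 equal parts by KRT5 plus KRT14 plus KRT15, with 167 or 168 straight and 327 curly cells in each. The part highest in these keratins held more CST6-low cells (113 and 195) than the lowest part (56 and 120). KRT1 was nearly level along the parts, at 11127 and 11181 CPM in the highest part and 9574 and 9135 CPM in the lowest. COL17A1 stood at 397 and 246 CPM in the highest part and 22.9 and 16.9 CPM in the lowest. CDSN ran the other way, from 71.5 and 81.1 CPM to 814 and 1611 CPM, and KRT77 from 71.5 and 131 CPM to 975 and 938 CPM. KRT79 stood at 575 and 1031 CPM in the highest, 1455 and 2399 CPM in the middle and 1788 and 2251 CPM in the lowest part, so that its order between the middle and the lowest part was not the same in the 2 libraries. GATA6 lay between 13.9 and 30.2 CPM in all parts, with overlapping counting intervals for neighbouring parts in both libraries.

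**Figure D4:**
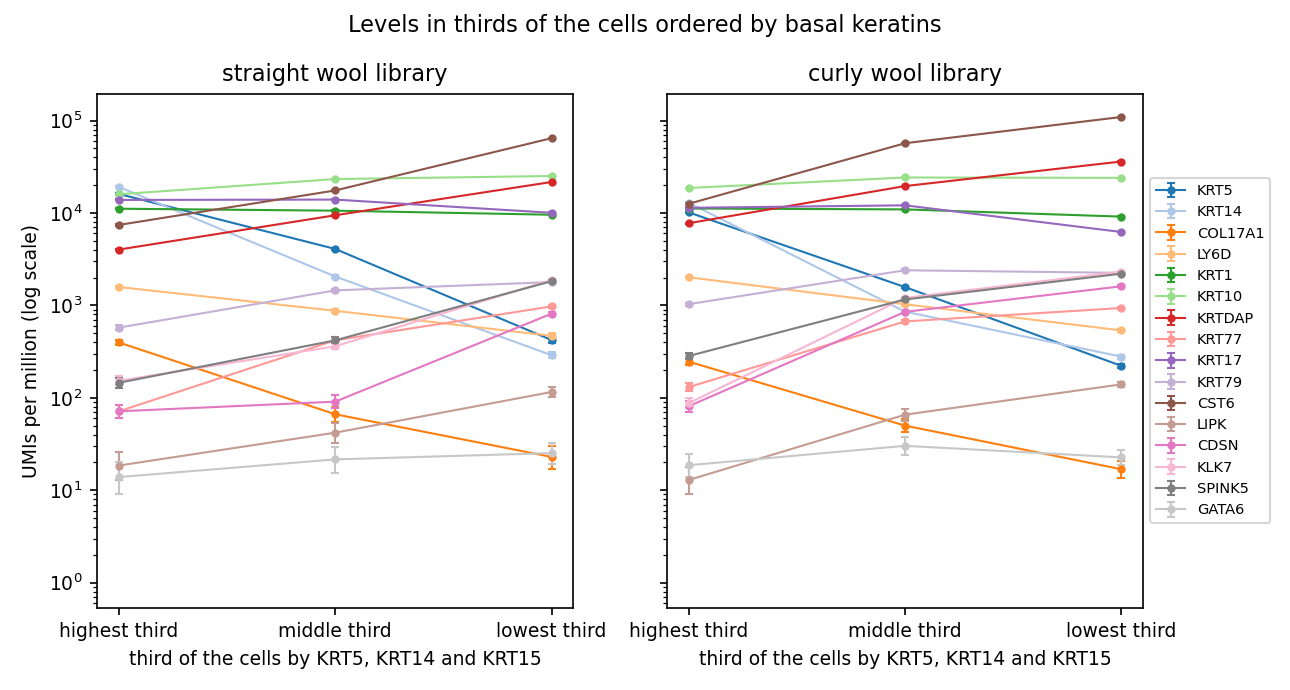
Level of 16 genes in CPM (vertical, log scale) in 3 equal parts of the chosen cells ordered from high to low KRT5, KRT14 and KRT15 (horizontal), in the straight and curly library, with exact Poisson 95% intervals as bars. COL17A1 is lower and CDSN, KLK7, SPINK5 and KRT77 are higher in the part lowest in basal keratins, while KRT1 and GATA6 vary little.

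Between wool types, some envelope and lipid genes and every interferon gene measured (18 of 18) were higher in curly chosen cells, and KRT5 and KRT14 lower. Of 7592 genes with at least 100 UMIs in the chosen cells, 253 (3.33%) were at least 2-fold higher and 231 (3.04%) at least 2-fold lower in curly. The median log2 ratio of all genes was -0.16, and ratios centred on it gave 310 higher and 136 lower genes, a share of 69.5% higher in place of 52.3%. Ratios are given uncentred, with an exact binomial 95% interval, and list medians can be read against -0.16.

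Envelope genes were higher in curly in 10 of 21 and lower in 0 (median log2 0.77). CSTA, cystatin A, had 78.8 and 415 CPM (log2 2.40, 2.26 to 2.54), and CDSN 354 and 1043 CPM (1.56, 1.49 to 1.63). LOR had 126 and 1325 CPM (3.39, 3.29 to 3.50), and 4.31 without the highest cell of each library. KPRP, a keratinocyte proline-rich protein, had no UMI in straight (0 CPM) and was at least 21.9-fold higher in curly, where 1 cell held 75.8% of its UMIs. Of 31 barrier lipid genes 6 were higher and 0 lower (median 0.29), namely ALOX12B (2.92), PLA2G2F (2.80, 2.49 to 3.12), SDR9C7 (2.21), ELOVL4 (1.43), CERS3 (1.24) and PLA2G4E (1.21). All 4 of PLA2G2F, ALOX12B, CSTA and LOR were also higher in curly in the FLG and CNFN type, at 3.36, 2.93, 4.71 and 8.49. These ratios rest on 127 straight and 62 curly cells, and 1 of the curly cells held most of their CRCT1 UMIs. The share of UMIs in single cells is not given for the 4 genes, so the sizes of these ratios are uncertain. CST6 carried most of the rule's sum, and its median in endothelial cells was 4.53 CP10K in straight and 14.1 CP10K in curly. A curly cell with such a background needed a larger opposing sum to count as FLG and CNFN type. The part of this in the ratios of both kinds of cell was not tested.

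Of the basal layer keratins, KRT5 and KRT14 were at least 2-fold lower in the curly chosen cells, while KRT15 was lower but within 2-fold. KRT5 had 6713 and 3007 CPM (log2 -1.16, -1.18 to -1.14) and KRT14 7090.3 and 3530.3 CPM (-1.01, -1.03 to -0.99, and within 2-fold once centred). The FLG and CNFN type differed by -1.84 and -1.80 in these genes, while basal keratinocytes were picked by them and give no contrast. POSTN, a matrix protein found here in basal cells, had 280.4 and 66.1 CPM (-2.09, -2.21 to -1.96), and DST and POSTN were the 2 of 11 basal adhesion genes that were at least 2-fold lower, with 0 higher (median -0.80). Of the rule itself, ATP6V1C2 and CST6 were the 2 of 6 genes at least 2-fold higher in curly, and on the opposing side LYPD2, CNFN and SERPINA12 were the 3 of 6, at 1.97, 2.23 and 2.57. These genes chose the cells, so nothing is read from them. KRT1 differed by -0.04, KRT10 by 0.08, KRT79 by 0.63 and GATA6 by 0.21 (-0.10 to 0.54). CST6 had 31698 and 72299 CPM (1.19, 1.18 to 1.20), and its ratio in endothelial cells, at 1.45, was of like size. Of 47 transcription factors 0 were higher and 1 lower, ETS2 at -1.15, and in the Notch, EGFR and junction lists no gene (0) passed 2-fold.

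Interferon response genes were higher in curly in 18 of 18 (median log2 2.74), and this held outside the chosen cells. IFI6, an interferon-induced membrane protein, had 5.48 and 3884 CPM in chosen cells, 12.2 and 11254 CPM in basal keratinocytes and 101 and 11199 CPM in endothelial cells. ISG15, a ubiquitin-like modifier, had 9.93 and 267 CPM (4.75, 4.37 to 5.15), and 6.31 and 323 CPM in basal keratinocytes. BST-2A, a tetherin gene, had no UMI in the straight chosen cells and was at least 122-fold higher in curly, and MX2, an antiviral GTPase, at least 21.6-fold. IFI6 was lower in the chosen cells than in basal keratinocytes in both libraries, by log2 -1.16 and -1.53. Whether free RNA carried these transcripts into the chosen cells was not tested.

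Among the genes lower in curly, S100A9 and S100A8, which form calprotectin, had 78.2 and 14.5 CPM (-2.43) and 31.2 and 6.96 CPM (-2.16). They were also lower in the FLG and CNFN type, at -1.46 and -0.54, while in basal keratinocytes S100A9 was at 0.69. AQP3 had 2394 and 968 CPM (-1.31), with -0.89 in basal keratinocytes. ATP1B1, a subunit of the sodium pump, was at -1.03. TRIB3, a pseudokinase of the stress response, had 22.3 and 4.58 CPM (-2.28) and was at -2.13 in the FLG and CNFN type and -1.69 in basal keratinocytes. TPSB2, a mast cell tryptase, had 20.4 and 1.15 CPM, with 81.5% of its straight UMIs in 1 cell. SRGN, a proteoglycan of leukocyte granules, had 16.6 and 1.5 CPM, with 49.5% and 47.1% in 1 cell of each library. CCK, cholecystokinin, had 17.98 and 2.03 CPM, with 61.0% and 30.4% in 1 cell.

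Within the KRT79-high cells, 139 of 4670 genes (2.98%) were higher and 156 (3.34%) lower in curly. The shares were 6.6% and 5.72% of 2832 genes in CST6-high cells, and 3.62% and 2.21% of 4831 genes in CST6-low cells. LOR had 207 and 1126 CPM in KRT79-high, 254 and 3221 CPM in CST6-high and 3.90 and 614 CPM in CST6-low cells, higher in curly in every range. The single cell with most LOR UMIs of the straight chosen cells lay in the KRT79-high range, by the size of the sums, and made up most of the 207 CPM. KRT5 was lower in curly in every range, with 4423 and 2057 CPM in KRT79-high and 8413 and 4379 CPM in CST6-low cells.

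**Figure D5:**
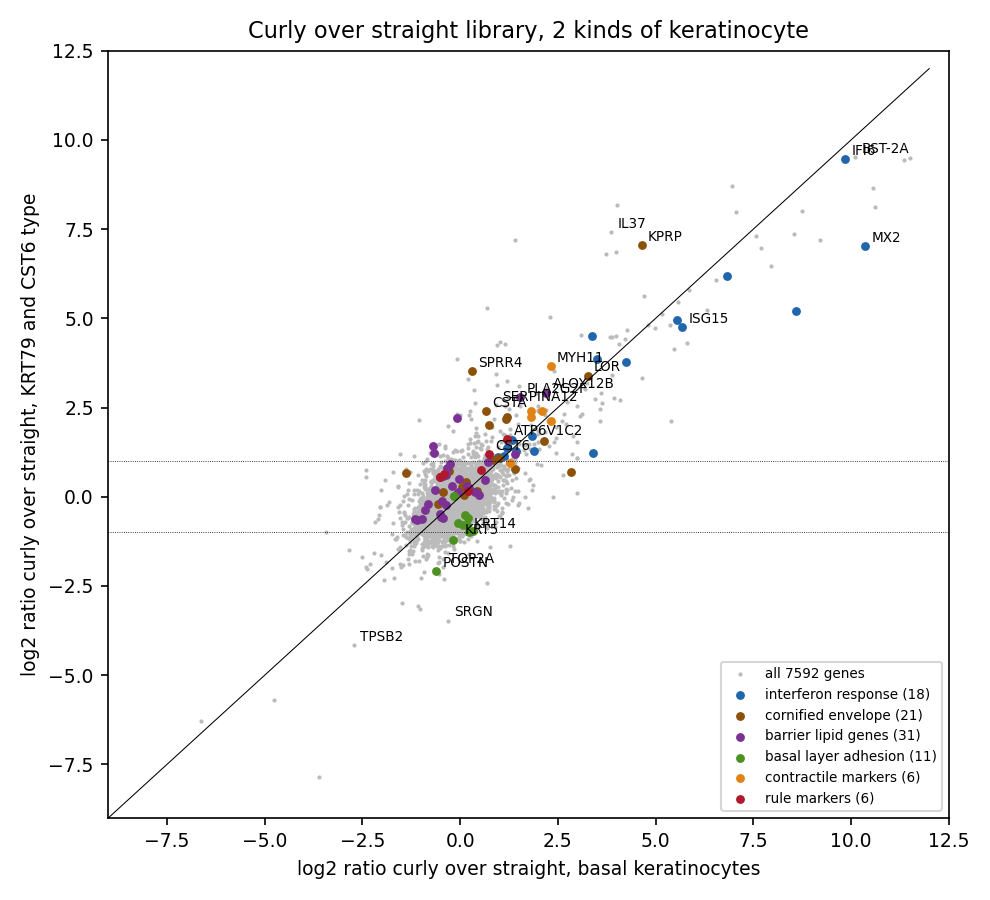
Log2 ratio of the curly over the straight library in basal keratinocytes (horizontal) and in the chosen cells (vertical) for 7592 genes (grey) and 6 gene lists (coloured), with a diagonal of equal ratios and dotted lines at 2-fold. Interferon genes lie near the diagonal, with IFI6 at 9.47 in the chosen cells, and SPRR4, PLA2G2F and CSTA lie above it.

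Markers of endothelial, immune and pigment cells were present at low levels, those of follicle, gland and dermal cells at higher ones. The 9 endothelial markers summed to 31.7 CPM in straight (8 with a UMI, KDR at 0) and 19.3 CPM in curly chosen cells, where endothelial cells had 5321 and 5837 CPM. The 9 immune markers, all with a UMI, summed to 29.1 and 8.98 CPM, and the 5 melanocyte markers to 8.73 and 8.46 CPM with DCT, MLANA and SOX10 at 0. Dermal markers, 11 of 11 with a UMI, summed to 292 and 199 CPM, against 8044 and 10846 CPM in endothelial cells, and 32.1% and 17.4% of the chosen cells had UMIs of at least 2 of them. Contractile markers differed between wool types in every kind of cell: the 8 summed to 33.2 and 138 CPM in chosen cells, 97.9 and 1362 CPM in endothelial cells and 821 and 2897 CPM in basal keratinocytes, and 5 of 6 measured genes were higher in curly chosen cells (median log2 2.31). Inner root sheath markers summed to 276 and 458 CPM in chosen cells and to 204 and 565 CPM in endothelial cells, with at least 2 of them in 58% and 83% of the chosen and 24.6% and 65.8% of the endothelial cells. Sweat gland markers, 8 of 8 with a UMI, summed to 552 and 715 CPM in chosen cells, 176 and 627 CPM in basal keratinocytes and 69.5 and 111 CPM in endothelial cells. The 9 markers of follicle stem cells and outer root sheath summed to 745 and 533 CPM, against 9050 and 7893 CPM in basal keratinocytes, and at least 2 were found in 64.1% and 51.4% of the chosen cells. Sebaceous genes were mostly too sparse to compare (5 of 22 measured against the FLG and CNFN type), and INSIG1, a brake on cholesterol synthesis, was the member that was higher there. The part of these cells' RNA in the results was not tested.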

How the data were processed

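Droplet single-cell RNA libraries of 2 pools of lamb skin were used, 1 per wool type. Per the labels and the methods, the authors aligned reads with Cell Ranger (version 3.0.2 in the labels, 2.2.0 in the methods) to Oar_rambouillet_v1.0 and filtered and scaled cells in Seurat 2.3.4. The deposited table holds the natural log of 1 plus UMIs per 10000 for 18161 genes. UMIs were recovered from it and were whole within 0.01 for 100% of 28552149 values. UMIs were then summed over cells and given per 1000000 with Python 3.11.15, numpy 2.4.6 and scipy 1.17.1. In ratios, 0.5 UMIs were added to both sums where either was 0, and genes under 100 UMIs were left out. Intervals were exact (Poisson, binomial, Clopper-Pearson). With 1 library per wool type no test was made, and cells are not replicates. The scripts were tested on simulated data.

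The members and the gene lists were chosen with earlier results of these data known. Named genes were those of the rule and the lists and, by log2 ratio, the first and last 15 over the FLG and CNFN type, 10 over basal keratinocytes and 12 between wool types. No doublet caller was run, and alternatives leave out cells of high depth or with 2 markers of another cell type. Names of 305 of 3912 uncharacterised loci came from RefSeq (ARS-UI_Ramb_v3.0, names only). No sequences or coordinates were used here.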

Additional observations from a re-analysis of the deposited data

Results flagged for a closer look

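For 3 genes the ratio of curly over straight pointed in opposite directions in the chosen cells and in the FLG and CNFN type, past 2-fold in both kinds of cell. CCL20, a chemokine for immature dendritic cells, had a log2 ratio of -1.48 in the chosen cells and 1.27 in the FLG and CNFN type, from 3651 and 615 UMIs, and the ratio in the chosen cells became 0.16 without cells above the 95th percentile of UMIs. LOC101120093 had -2.31 and 1.67, from 234 and 51 UMIs, and without the highest cell of each library the ratio in the FLG and CNFN type turned to -2.13. TOP2A, a topoisomerase of dividing cells, had -1.97 and 2.24, from 169 and 43 UMIs, and likewise turned to -1.28 in the FLG and CNFN type without the highest cells. The differences between the 2 kinds of cell were not tested, since each wool type had 1 library.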

How the results depend on the processing

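The share of chosen cells, in the straight and the curly library, became 6.23% and 10.9% with KRT1 plus KRTDAP of at least 100 CP10K, 6.65% and 10.3% with the number of detected genes in place of their sum, 9.08% and 14.8% among cells past a raised minimum of genes per cell, 11.4% and 20.5% without cells holding 2 markers of another cell type (138 of 1215 and 127 of 619 cells, so that most cells, chosen ones included, were removed), and 12.2% in curly where the rule sum had to pass 2 times the opposing sum. Leaving out each rule gene in turn gave 4.46% to 7.78% in straight and 7.19% to 12.9% in curly, 180 to 254 genes higher and 182 to 232 lower in curly, 219 to 310 higher and 167 to 228 lower than in the FLG and CNFN type, and 503 to 530 higher and 1523 to 1678 lower than in basal keratinocytes. The lowest shares were those without CST6.

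Counts of genes past 2-fold moved with depth, with the minimum of UMIs and with the removal of cells holding markers of another type. Higher and lower genes in curly, against the FLG and CNFN type and against basal keratinocytes were 77 and 40, 80 and 59, and 290 and 609 with cells thinned to 2000 UMIs. They were 1504 and 2057, 398 and 2099, and 1214 and 2602 with a minimum of 1 UMI, 124 and 66, 109 and 66, and 324 and 780 with 400 UMIs, and 56 and 39, 142 and 42, and 236 and 439 without cells holding 2 markers of another type, where fewer cells or genes were compared. Genes lower in curly numbered 143 without cells above the 95th percentile of UMIs, 349 with the mean of CP10K over cells and 136 when centred, and genes higher than in the FLG and CNFN type 330 with the mean of CP10K, and the cause was not tested. Among alternatives chosen after seeing the data, genes lower than in the FLG and CNFN type numbered 269 for KRT79-high and CST6-high cells together, genes higher in curly 139 for KRT79-high cells, and genes higher than in the FLG and CNFN type 347 with each gene's highest cell left out.

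The direction of 3 named ratios turned. CCL20 in curly over straight went from -1.48 to 0.16 without cells above the 95th percentile of UMIs, to 1.56 without cells holding 2 markers of another type and to 0.11 for KRT79-high and CST6-high cells together. SRGN over the FLG and CNFN type went to 1.19 without cells above the 95th percentile of UMIs. SPINK9 over basal keratinocytes ran from -0.77, without CST6 in the rule, to 1.42 with each rule gene left out in turn. The causes were not tested.

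No paired analysis was possible because each wool type had 1 library. Genes under about 100 UMIs over the compared cells were not described, and the FLG and CNFN type, with 62 curly cells, gave the least precise values.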
